A study of Rattus norvegicus with 8 samples.

Results

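The miR-30 family is a group of microRNAs (miRNAs), short RNAs that lower the output of messenger RNAs carrying sites that match their seed, bases 2 to 8. It was followed here in the rat glioma line C6 through 7 mature miRNAs: rno-miR-30a-5p, rno-miR-30b-5p, rno-miR-30c-5p, rno-miR-30d-5p, rno-miR-30e-5p, rno-miR-30a-3p and rno-miR-30e-3p. They were chosen by name among the 719 miRNAs on the array. The cells had received haloperidol at 2 µg/ml, risperidone at 4 µg/ml or clozapine at 25 µg/ml, added each day for 5 days, or no drug (control). Haloperidol is a typical antipsychotic that blocks dopamine receptors, while risperidone and clozapine are atypical antipsychotics that also act on serotonin receptors. Each of the 4 groups had 2 arrays, described by the submitters as biological repeats, and all 8 arrays lay on 1 slide. Control cells are labelled untreated, with no mention of a vehicle, and all groups share 1 cell line grown with horse and bovine serum.

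Each miR-30 hairpin is cut into a 5p and a 3p strand, and the strand that is kept guides the silencing complex while its partner is mostly degraded. The 5p strands are the usual guides of this family. They are known to repress Snai1, a driver of the epithelial to mesenchymal transition, and miR-30a-5p is known to repress the autophagy gene BECN1 and the neurotrophin gene BDNF in human cells and tissue. In rat heart cells miR-30 is known to repress the matrix gene Ctgf. The miRNA miR-384-5p of neurons has another body but the same seed.

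The mature sequences held by RefSeq for rat (GRCr8) are shown to make clear how close the 5p strands are to each other and how unlike them the 3p strand is, with the seed in capitals.
miR-30a-5p: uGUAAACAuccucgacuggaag
miR-30e-5p: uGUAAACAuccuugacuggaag
miR-30c-5p: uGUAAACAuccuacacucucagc
miR-384-5p: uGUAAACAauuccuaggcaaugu
miR-30a-3p: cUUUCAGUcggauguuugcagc
Of the 7 members, 4 had an entry in that table, and miR-30b-5p, miR-30d-5p and miR-30e-3p are given by name only. Counted from 1 at the 5′ end, miR-30a-5p and miR-30e-5p differ by C13U alone, 1 of 22 bases. Between miR-30a-5p and miR-30c-5p there are 5 differences over the same 22 bases (C13A, G14C, G18C, G19U and A20C), and between miR-30a-5p and miR-384-5p there are 10. Among 693 rat mature miRNAs in the table, 4 (0.577%) held GUAAACA at bases 2 to 8, and all 4 are listed above. UUUCAGU, the seed of miR-30a-3p, was held by 1.

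miR-30a-5p lies at chr9:33233946-33233967 on the plus strand and miR-30e-5p at chr5:139637504-139637525 on the minus strand. miR-30c-5p comes from 2 loci, at chr5:139634505-139634527 (minus strand) and chr9:33253695-33253717 (plus strand). The genes fall in pairs, each on 1 chromosome: Mir30c1 and Mir30e on chromosome 5 and Mir30b and Mir30d on chromosome 7 have 0 annotated genes between them, and Mir30a and Mir30c2 on chromosome 9 have 2. The Mir30a hairpin (chr9:33233941-33234011, plus strand) is printed with both of its measured strands in capitals, because the arm comparison further on rests on them.
Mir30a: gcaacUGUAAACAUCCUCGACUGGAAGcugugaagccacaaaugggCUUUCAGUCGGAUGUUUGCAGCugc

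Signals are given as log2 levels, in which 0 is the array's 75th percentile over probes above background on all arrays, and the lowest value allowed is -6.21. A miRNA was counted as detected where the deposited gene-level flag says so, and 185 of the 719 were detected on all 8 arrays. The fewest miRNAs were detected on replicate 2 of risperidone (193) and of clozapine (203), where the other 6 arrays had 233 to 254. These 2 arrays also had the lowest log10 signals of the labelling spike-in, 2.73 and 2.88, where the others had 2.99 to 3.12. The 4 miRNAs listed as C6 glioma markers were detected on all arrays, the 4 miR-200 family markers of epithelium on none, and of the 4 neuron markers miR-124-3p was detected on none and the other 3 (miR-9a-5p, miR-9a-3p and miR-128-3p) on all. The oligodendrocyte marker miR-338-3p and, of 5 microglia and leukocyte markers, miR-146a-5p were also detected on all arrays. Of the 3 erythrocyte and serum markers and the 3 muscle markers, 0 were detected on all arrays and 2 of each on none. Replicate 1 of every group lay in the first slide row and replicate 2 in the other row, and each group had its own slide column, so column and treatment cannot be told apart.

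All 7 miR-30 members entered the test, which took the 243 miRNAs detected on both replicates of 1 or more groups. Of these members, 6 were detected on all 8 arrays, and miR-30a-3p was missed on risperidone replicate 2 only. The arrays measured RNA of whole cultures, so fewer cells making a miRNA and less of it per cell cannot be told apart. No difference of a member between groups passed the test at an adjusted p of 0.05: limma called 0 of the 7 in every comparison, and 0 of the 243 (0%) as well. Over the arrays the members did not share 1 course. miR-30a-5p and miR-30e-5p followed each other closely over the arrays, their own 3p partners followed a different course, and the remaining 5p members varied less.

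rno-miR-30e-5p had the widest spread of the family. Its log2 level was -0.64 and -0.89 with haloperidol, -0.42 and -1.26 with risperidone, -1.22 and -0.75 with clozapine, and -2.09 and -1.12 in control cells (replicates 1 and 2). Control replicate 1 stood lowest of all arrays. The haloperidol arrays both lay above both control arrays, while 1 risperidone and 1 clozapine array lay below control replicate 2. Its log2 fold change was 0.84 for haloperidol (1.79-fold higher, SE 0.44), 0.76 for risperidone (1.69-fold higher, SE 0.44) and 0.61 for clozapine (1.53-fold higher, SE 0.44), with n = 2 per group. These differences did not pass, at limma adjusted p = 0.576, 0.508 and 0.571. The 3 comparisons share the same 2 control arrays. Over the mean of the 3 drugs the log2 fold change was 0.74 (SE 0.36, adjusted p = 0.357), against a median of -0.16 over all 243 miRNAs.

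The size of these values rested on the 2 control arrays, which lay far apart. Without control replicate 1 the log2 fold change of miR-30e-5p was 0.35 for haloperidol, 0.28 for risperidone and 0.13 for clozapine, and 0.25 for the mean of the drugs (limma adjusted p = 0.971). Without control replicate 2 it was 1.22 for the mean of the drugs (adjusted p = 0.142). Within the slide rows, haloperidol differed from control by 1.45 in row 1 and 0.23 in row 2, risperidone by 1.67 and -0.15, and clozapine by 0.87 and 0.36. With the slide row as a block the mean of the drugs stayed short of the threshold (limma adjusted p = 0.257).

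rno-miR-30a-5p, which differs from miR-30e-5p by a single base, showed the same order of arrays at a smaller range. Its log2 level was -1.40 and -1.55 with haloperidol, -1.34 and -1.89 with risperidone, -1.77 and -1.42 with clozapine, and -2.20 and -1.75 in control cells. Only the haloperidol arrays lay apart from the control arrays. The log2 fold change was 0.50 for haloperidol (1.41-fold higher, SE 0.27, limma adjusted p = 0.576), 0.36 for risperidone (SE 0.27, adjusted p = 0.549) and 0.38 for clozapine (SE 0.27, adjusted p = 0.569). Without control replicate 1 the mean of the drugs gave 0.19, in place of 0.41 with all arrays. In slide row 2 the risperidone array lay below its control array (-0.14), where in row 1 it lay above (0.86). Without any scaling between arrays the miR-30a-5p value turned negative for risperidone (-0.26) and clozapine (-0.05), while that of miR-30e-5p stayed above 0 for each drug.

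**Figure D1:**
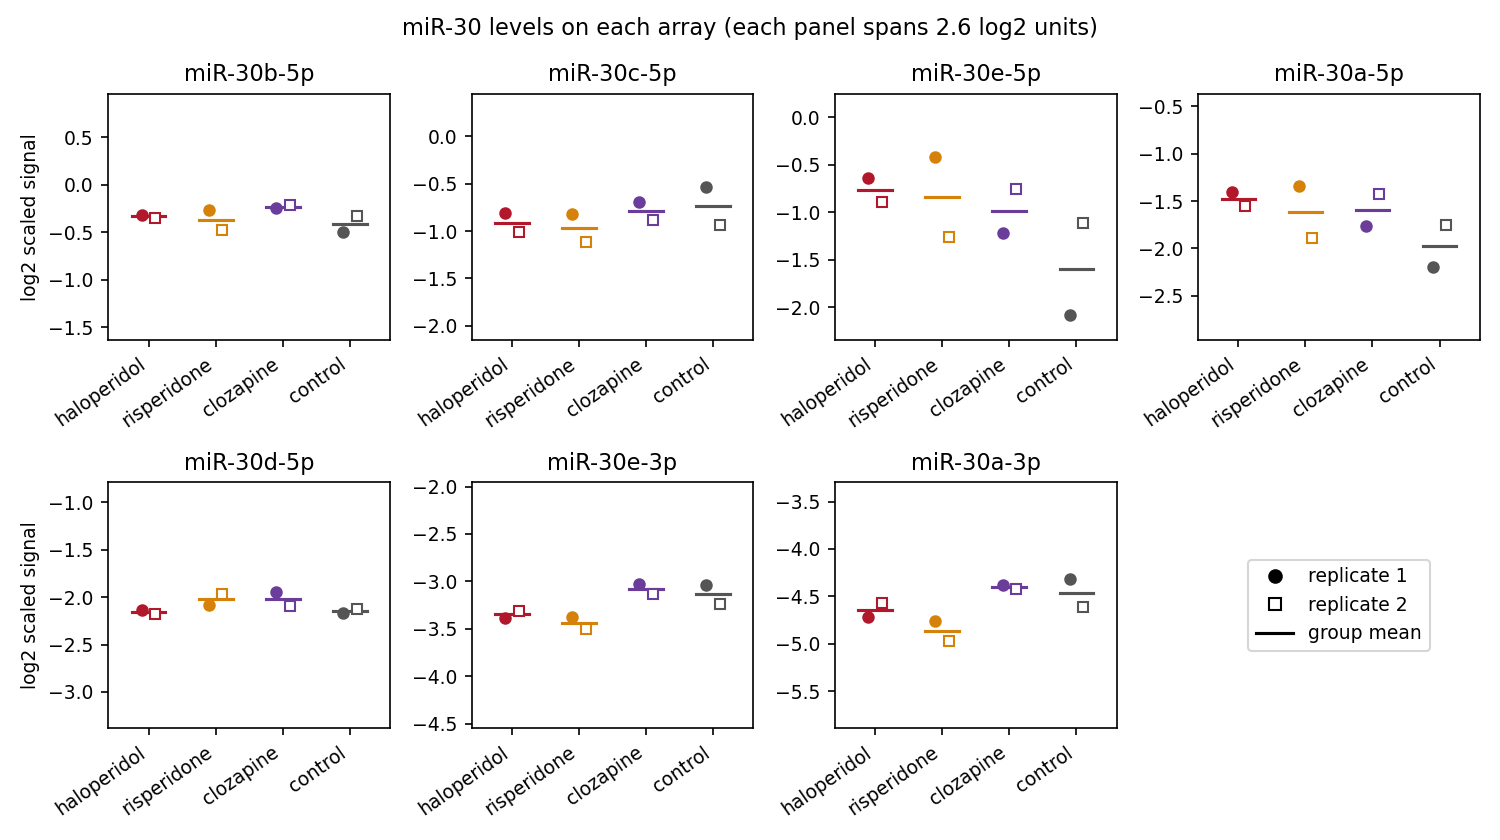
Log2 scaled level (vertical axis) of each miR-30 member on the 8 arrays, by group, with replicate 1 as filled circles, replicate 2 as open squares and the group mean as a line. Every panel spans the same number of log2 units around its own centre. The control arrays of miR-30e-5p lie at -2.09 and -1.12, and the groups of miR-30b-5p and miR-30d-5p lie close together.

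rno-miR-30b-5p was among the steadiest miRNAs measured, with an SD of 0.10 over the 8 arrays, rank 7 from the lowest of the 185 miRNAs detected on all arrays. Its log2 level was -0.31 and -0.35 with haloperidol, -0.26 and -0.48 with risperidone, -0.25 and -0.22 with clozapine, and -0.49 and -0.33 in control cells. Its log2 fold changes were 0.08, 0.04 and 0.18 in the order haloperidol, risperidone and clozapine, each with an SE of 0.14. The sign of all 3 turned with quantile normalization.

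rno-miR-30d-5p, made from the neighbouring hairpin, was steadier still, at rank 3 of 185 with an SD of 0.09. Its log2 level was -2.13 and -2.18 with haloperidol, -2.08 and -1.96 with risperidone, -1.94 and -2.09 with clozapine, and -2.16 and -2.12 in control cells. Here the log2 fold changes were -0.01, 0.12 and 0.12 (SE 0.12) for haloperidol, risperidone and clozapine. Their signs turned without scaling, where the median of all miRNAs was 0.09, -0.64 and -0.55 in the same order. By comparison, the median SD of the 185 miRNAs was 0.31, miR-30e-5p had an SD of 0.51 (rank 145) and miR-30a-5p one of 0.29 (rank 87).

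rno-miR-30c-5p had its highest level on the array where miR-30a-5p and miR-30e-5p had their lowest. Its log2 level was -0.81 and -1.01 with haloperidol, -0.82 and -1.12 with risperidone, -0.69 and -0.88 with clozapine, and -0.53 and -0.93 in control cells. Replicate 1 lay above replicate 2 in all 4 groups. The log2 fold changes were -0.18 for haloperidol, -0.24 for risperidone and -0.05 for clozapine (SE 0.20). They turned positive for risperidone and clozapine when the percentile was taken over all probes. The median of all miRNAs was then 0.35 for risperidone and 0.42 for clozapine. The seed mate miR-384-5p also had fold changes below 0, at -0.21, -0.31 and -0.28 (SE 0.32).

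The 2 measured 3p strands are the partners of miR-30a-5p and miR-30e-5p. rno-miR-30a-3p had a log2 level of -4.71 and -4.57 with haloperidol, -4.76 and -4.97 with risperidone, -4.38 and -4.42 with clozapine, and -4.32 and -4.62 in control cells. rno-miR-30e-3p had a log2 level of -3.39 and -3.31 with haloperidol, -3.38 and -3.50 with risperidone, -3.03 and -3.14 with clozapine, and -3.03 and -3.24 in control cells. On both, the risperidone arrays lay below both control arrays, and the clozapine arrays lay at or between the levels of the control arrays.

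Against control, miR-30a-3p was at -0.17 on the log2 scale with haloperidol, -0.40 with risperidone and 0.07 with clozapine (SE 0.16). miR-30e-3p was at -0.21, -0.30 and 0.06 (SE 0.14) in the same order. The haloperidol and clozapine signs of both turned without scaling, where the median of all miRNAs was 0.09 and -0.55. The limma adjusted p for risperidone was 0.453 for both. For risperidone both values turned positive when the percentile was taken over all probes, 0.19 and 0.29, and with normexp background correction, 0.42 and 0.28.

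Clozapine over risperidone gave a log2 fold change of 0.46 for miR-30a-3p (1.38-fold, SE 0.16) and 0.36 for miR-30e-3p (1.28-fold, SE 0.14), which did not pass. In both slide rows the clozapine array lay above the risperidone array, by 0.38 and 0.55 for miR-30a-3p and by 0.35 and 0.37 for miR-30e-3p. Their unadjusted limma p-values were 0.032 and 0.044, and only 4 of 243 miRNAs (1.65%) had one under 0.05 in this comparison, but the adjusted p was 1 for each. Both 3p strands and miR-30b-5p lay above both risperidone arrays on both clozapine arrays, which 5.76% of the 243 did, and 0 members lay below (8.64% of all). The difference of the 3p strands kept its sign under every scaling tried. The deposited gene-level signal, which lists miR-30a-3p as not detected on risperidone replicate 2, gave 1.39 for that member.

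With haloperidol, 2 of the 7 members (miR-30a-5p and miR-30e-5p) lay above both control arrays on both drug arrays, which 11.1% of the 243 did, and 1 (miR-30e-3p) lay below, which 32.9% did. With risperidone, 1 member (miR-30d-5p) lay above, against 6.17% of all, and both 3p members lay below, against 32.9%. With clozapine, miR-30b-5p and miR-30d-5p lay above, against 5.35%, and 0 lay below, against 34.2%. The median log2 fold change of the 7 members was -0.01, 0.04 and 0.12 in the order haloperidol, risperidone and clozapine, where that of all 243 miRNAs was -0.15, -0.15 and -0.17. At an unadjusted limma p under 0.05 there were 0 members for each drug against control, and 17 (7%), 22 (9.05%) and 36 (14.8%) of the 243 miRNAs. The limma F test over the 4 groups gave its smallest p among members for miR-30a-3p (0.108, adjusted p = 0.778), and 8 of 243 (3.29%) were under 0.05. For the mean of the drugs 0 members lay wholly above or below the control arrays, against 1.65% and 20.2% of all, and 0 had an unadjusted limma p under 0.05, against 15.2%. An exact permutation test of 2 against 2 arrays cannot give a p below 0.333.

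Among drugs, both clozapine arrays lay above both haloperidol arrays for 4 of the 7 members (miR-30b-5p, miR-30d-5p and both 3p strands), where 6.17% of the 243 miRNAs did, and below for 0 (16% of all). The largest of these differences was that of miR-30e-3p, at 0.27 on the log2 scale (SE 0.14, limma adjusted p = 1). No member had an unadjusted limma p under 0.05, and 1.23% of all miRNAs had. Risperidone lay apart from haloperidol for miR-30d-5p, which was higher (12.8% of all were), and for miR-30a-3p, which was lower (9.88% of all were), by 0.13 and -0.23 on the log2 scale (SE 0.12 and 0.16). Again 0 members and 0% of all miRNAs had an unadjusted limma p under 0.05.

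**Figure D2:**
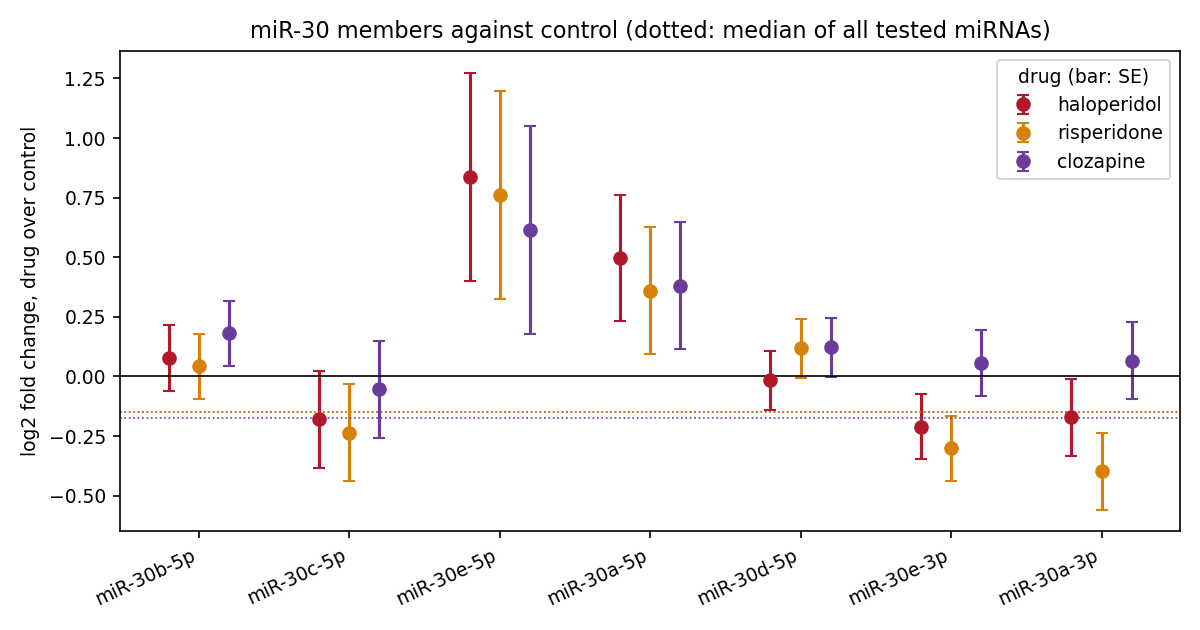
Log2 fold change of each drug over control (vertical axis) for the 7 miR-30 members, with bars for the standard error and dotted lines at the median of all tested miRNAs. miR-30e-5p and miR-30a-5p lie above 0 for all 3 drugs (for miR-30a-5p not so without scaling). The 3p members lie below 0 with haloperidol and risperidone but not with clozapine. Their signs turned under other scalings, where the median of all miRNAs differed too. None of the differences passed an adjusted p of 0.05.

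The arms of one hairpin can be compared on the same array. Where neither arm is at the floor, as for miR-30a and miR-30e, the difference of their log2 levels does not depend on the factor by which that array was scaled. Its absolute value mixes the response of different probes and was not read as a ratio of molecules, so only its change between groups was used. For miR-30e the log2 5p level minus the log2 3p level was 2.75 and 2.42 with haloperidol, 2.96 and 2.24 with risperidone, 1.81 and 2.38 with clozapine, and 0.95 and 2.12 in control cells. All 4 haloperidol and risperidone arrays lay above both control arrays, clozapine replicate 1 lay between the control arrays, and control replicate 1 stood lowest.

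The arm difference of miR-30e was greater than in control by 1.05 with haloperidol (2.07-fold, SE 0.47), 1.06 with risperidone (2.09-fold, SE 0.47) and 0.56 with clozapine (1.47-fold, SE 0.47). For the mean of the drugs it was 0.89 (SE 0.39). None passed, at limma adjusted p = 0.566, 0.478, 0.597 and 0.350 over the 50 hairpins with both arms tested, of which 0 (0%) were called for any drug. In slide row 1 the differences from control were 1.80, 2.01 and 0.86 in the order haloperidol, risperidone and clozapine, and in row 2 they were 0.29, 0.11 and 0.26. Without control replicate 1 the mean of the drugs came to 0.30, and without control replicate 2 to 1.48 (limma adjusted p = 0.082). With the slide row as a block its adjusted p was 0.234.

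The arm difference of miR-30a was 3.31 and 3.01 with haloperidol, 3.42 and 3.08 with risperidone, 2.61 and 3.001 with clozapine, and 2.12 and 2.87 in control cells. The haloperidol and risperidone arrays again lay above both control arrays. It exceeded that of control by 0.67 under haloperidol, 0.76 under risperidone and 0.31 under clozapine (SE 0.34, limma adjusted p = 0.566, 0.478 and 0.614), and 0.58 for the mean of the drugs (SE 0.27). Without control replicate 1 the mean of the drugs was 0.21. In row 1 the differences from control were 1.19, 1.296 and 0.49, and in row 2 0.15, 0.22 and 0.14, in the same order of drugs. The clozapine value turned negative with quantile normalization (-0.10), cyclic loess (-0.03) and normexp (-0.295).

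Both hairpins lay above both control arrays with haloperidol, where 22% of the 50 hairpins did (18% lay below), and with risperidone, where 18% did (26% lay below). Of the 50, 29 had both arms detected on all arrays, miR-30e among them but not miR-30a. Some of the others, such as miR-135b, had an arm at the floor, where the difference follows the other arm alone. With clozapine neither hairpin lay apart from the control arrays, where 12% of the 50 lay above and 20% below, and for the mean of the drugs neither did either (4% above, 8% below). Ordered by the change for the mean of the drugs, miR-30e was in place 6 and miR-30a in place 11 of 50, and the median hairpin was at 0.02. Among hairpins with both arms detected on all arrays, the 3 with the largest changes were miR-34b (1.24, SE 0.53), miR-324 (1.08, SE 0.58) and miR-106b (1.07, SE 0.36). miR-222 (0.98, SE 0.47), named after its value was seen, also lay above miR-30e. The most negative were miR-338 (-2.17, SE 0.49), miR-193 (-1.97, SE 0.87) and miR-21 (-0.88, SE 0.30), and none of the 6 largest and most negative passed either (smallest limma adjusted p 0.183).

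**Figure D3:**
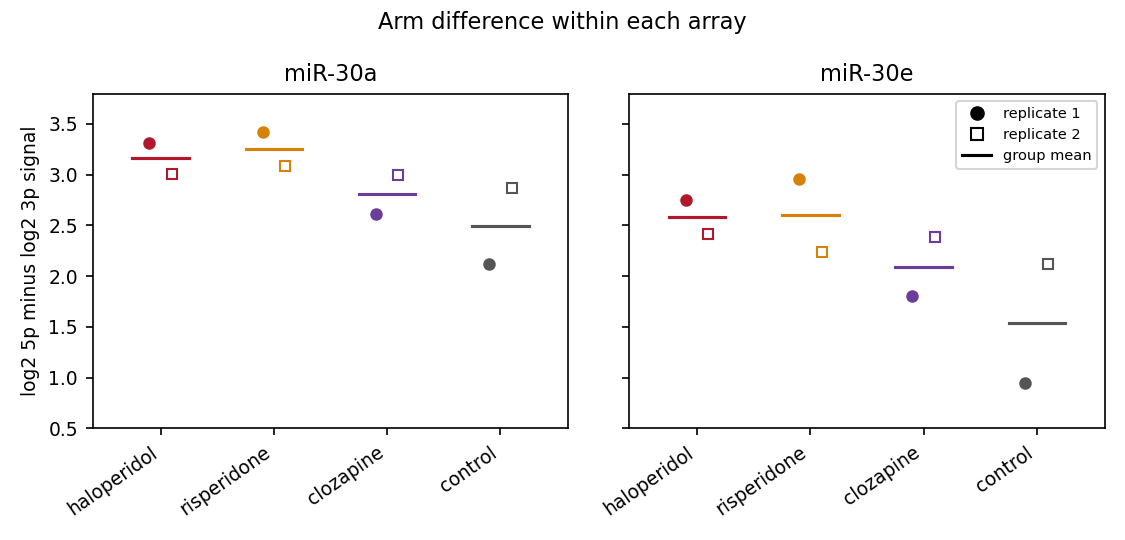
Log2 5p signal minus log2 3p signal on each array (vertical axis) for miR-30a and miR-30e, by group, with replicate 1 as filled circles, replicate 2 as open squares and the group mean as a line. Haloperidol and risperidone arrays lie above both control arrays in both panels, and the control arrays of miR-30e span 0.95 to 2.12.

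For the other hairpins the change of the arm difference over the mean of the drugs was -0.26 in miR-30b (SE 0.24), -0.14 in miR-30d (SE 0.46) and 0.07 in miR-384 (SE 0.21). None of these hairpins had both arms detected on all arrays. The 3p strand of miR-384 lay at the floor on both clozapine arrays and on replicate 2 of haloperidol and of risperidone. There the arm difference of miR-384 follows the 5p strand alone. In miR-30b the log2 fold change for the mean of the drugs was 0.36 for the 3p and 0.10 for the 5p strand, and in miR-30d it was 0.22 and 0.08. miR-30b-3p had log2 levels of -4.45 and -4.31 with haloperidol, -4.24 and -5.02 with risperidone, -4.50 and -4.66 with clozapine, and -5.17 and -4.61 in control cells. miR-30d-3p ranged from -6.21, the floor, on risperidone replicate 2 to -4.68 on risperidone replicate 1. Of the strands opposite miR-30c-5p, miR-30c-1-3p was at the floor on all 8 arrays and miR-30c-2-3p on 3. The deposited flag listed each of the 2 strands as detected on 6 arrays, so a level at the floor does not mean not detected. No arm difference was taken for miR-30c, because arms were paired by matching names and these strands carry the names of separate loci.

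Each of the 7 members was read by 2 probes of different brightness. The log2 gap between the 2 probes of a member varied by an SD of 0.03 to 0.10 over the arrays. The largest gap between the 2 probes in a drug-minus-control difference was 0.05 for miR-30e-5p, 0.09 for miR-30a-5p, 0.13 for miR-30a-3p and 0.16 for miR-30e-3p. It was 0.16 for miR-30c-5p, 0.10 for miR-30d-5p and 0.03 for miR-30b-5p. With clozapine the brighter and the dimmer probe differed in sign for miR-30c-5p (-0.08 and 0.08) and miR-30e-3p (0.09 and -0.02). With haloperidol they did so for miR-30d-5p (-0.04 and 0.03). The low miR-30e-5p value of control replicate 1 was seen on both of its probes, at -1.03 and -1.08 from each probe's mean over the arrays. The probes of the 3p strands stood above their means on that array. Summed over probes and before scaling, the miR-30e-5p intensity on that array was 245, against 438 on control replicate 2, where miR-30e-3p had 127 and 100.3.

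**Figure D4:**
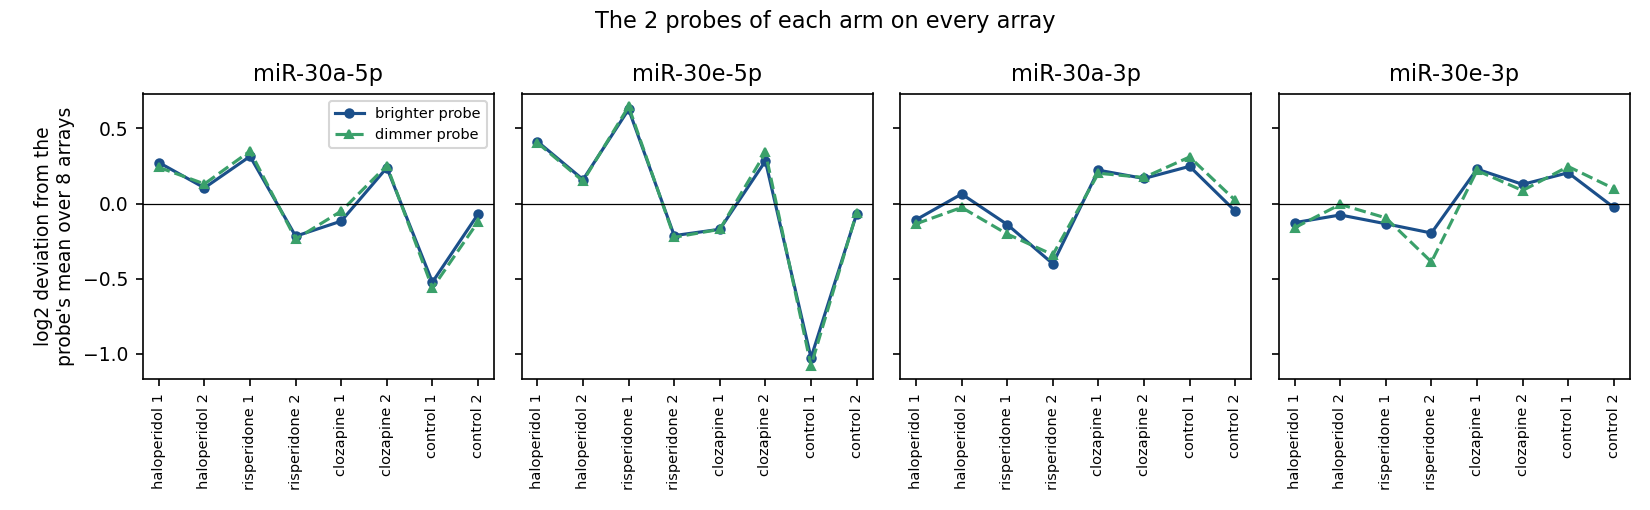
Log2 deviation of the brighter and the dimmer probe of each arm from that probe's own mean over the 8 arrays (vertical axis), array by array. The 2 probes of an arm run together, and control replicate 1 is low on both probes of miR-30a-5p and miR-30e-5p and high on both probes of the 3p strands. The lines only link the points of 1 probe.

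Over the 8 arrays the levels of miR-30a-5p and miR-30e-5p had a Pearson correlation of 0.98 (Spearman 1), and 0.98 without the 2 arrays farthest from the median. Their sequences differ by 1 base, and how far the probes of either also read the other was not tested. Their 3p partners, miR-30a-3p and miR-30e-3p, had a correlation of 0.97 (Spearman 0.93). No sequence was held for miR-30e-3p, and how far the probes of these 3p strands read each other was not tested either. Between strands of 1 hairpin the correlation was -0.27 for miR-30a and -0.51 for miR-30e, and without control replicate 1 it was 0.17 and -0.20. For miR-30c-5p it was 0.85 with its seed mate miR-384-5p and -0.33 with miR-30a-5p, and without control replicate 1 it was 0.80 and 0.39. These 8 points share a slide and each array's scaling, and they are given as descriptions.

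The miRNAs whose levels ran most like the mean of the 5 5p members were miR-503-5p (Pearson 0.94 over 8 arrays), miR-338-3p (0.93), miR-872-5p (0.92), miR-449a-5p (0.91) and miR-362-3p (0.90), out of 178 candidates detected on all arrays. Those most like the mean of the 3p members were miR-361-5p (0.93), miR-340-3p (0.91), miR-23a-3p (0.91), miR-15b-5p (0.82) and miR-28-5p (0.78). Without control replicate 1 the first group kept correlations of 0.79 to 0.89 and the other group 0.69 to 0.97. In the mean of the 5p members, miR-30e-5p (SD 0.51) and miR-30a-5p (SD 0.29) weighed most. The levels of miR-30c-5p (SD 0.18), miR-30b-5p (SD 0.10) and miR-30d-5p (SD 0.09) varied less, so the likeness is mainly to the former pair.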

How the data were processed

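The values deposited by the authors are spot intensity (linear, not scaled between arrays) from 1-colour Cy3 arrays, made with Agilent Feature Extraction 10.7.3.1 per the file headers. The deposited flags for outlier spots and for spots well above background hold 0 or 1 (unit other). Each array held 14380 non-control spots for 1730 probes of 719 miRNAs, and 0 spots were saturated.

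Here the background-subtracted signals of non-outlier spots were averaged by probe and summed by miRNA. On each array the sums were scaled to the 75th percentile of the 292 probes that exceeded background on every array, given a minimum of 0.0135 (the 5th percentile among detected values) and log2 transformed. Of the miRNAs, 243 were tested because some group had both arrays with detection, and 476 were not. Group means over all 8 arrays were fitted with limma 3.58.1 in R 4.3.3 (lmFit, eBayes; 4 residual and 5.42 total degrees of freedom), two-sided, with Benjamini-Hochberg adjustment and a threshold of 0.05. Arm differences (log2 5p minus log2 3p) were fitted likewise for 50 hairpins. The number of arrays limits the precision. Alternatives covered the scaling, background correction, probe summary, filter, floor, arrays fitted, slide row as a block and each array left out. Normexp was run on medians, since the planned spot means were not in the columns used here.

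The members, their seed mate, the other arms of their hairpins and the marker lists were always named, and 5 further miRNAs per arm were taken by correlation and 6 hairpins by size of change. Members and lists were chosen with earlier results of these data known. Sequences and positions are RefSeq's (GRCr8).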

Additional observations from a re-analysis of the deposited data

How the results depend on the processing

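No miR-30 member and neither of its arm differences passed an adjusted p of 0.05 under any alternative (smallest 0.0825). With 2 arrays per group, miR-30e-5p and miR-30a-5p had wide gaps between the 2 control arrays and between the 2 risperidone arrays, and the weak signal of the 3p strands, close to background on replicate 2 of risperidone, limits the arm comparison.

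With the replicate block, limma called 1 miRNA for risperidone, 2 for clozapine and 7 for the mean of the drugs, and 1 hairpin each for the arm differences of risperidone, clozapine and the mean of the drugs; none was a miR-30. The 2 replicate numbers are also slide rows, and same-numbered arrays deviated together to an uneven degree (r from 0.16 to 0.71 between groups). The correlation was weak for risperidone with control (0.16) and with clozapine (0.20). Leaving out 1 array gave 0 to 5 calls for haloperidol, 0 to 6 for risperidone, 0 to 7 for clozapine and 0 to 7 for the mean of the drugs, and for the arm differences 0 to 2, 0 to 3, 0 to 2 and 0 to 3; all came without control replicate 2, and none was a miR-30.

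Values whose sign turned are log2 fold changes against control. With quantile normalization these were miR-30b-5p for haloperidol (-0.20), risperidone (-0.16), clozapine (-0.0269) and the mean of the drugs (-0.13), miR-30a-3p for haloperidol (0.00432) and the mean of the drugs (0.0943), and the miR-30a arm difference for clozapine (-0.10). Without scaling they were, for haloperidol, miR-30c-5p (0.0803), miR-30d-5p (0.245), miR-30a-3p (0.0885) and miR-30e-3p (0.0493); for risperidone, miR-30a-5p (-0.26), miR-30b-5p (-0.575) and miR-30d-5p (-0.50); for clozapine, miR-30a-5p (-0.0481), miR-30b-5p (-0.25), miR-30d-5p (-0.31), miR-30a-3p (-0.36) and miR-30e-3p (-0.37); and for the mean of the drugs, miR-30b-5p (-0.16) and miR-30d-5p (-0.19). With the percentile over all probes they were miR-30d-5p for haloperidol (0.11), miR-30c-5p (0.35), miR-30a-3p (0.19) and miR-30e-3p (0.29) for risperidone, miR-30c-5p for clozapine (0.595), and miR-30c-5p (0.30), miR-30a-3p (0.29) and miR-30e-3p (0.30) for the mean of the drugs. Normexp turned miR-30a-3p (0.42) and miR-30e-3p (0.28) for risperidone, miR-30c-5p (0.20) and the miR-30a arm difference (-0.295) for clozapine, and miR-30a-3p (0.43) and miR-30e-3p (0.29) for the mean of the drugs. Cyclic loess turned miR-30a-3p (0.10) and miR-30e-3p (0.0045) for the mean of the drugs and the miR-30a arm difference for clozapine (-0.0292). The deposited gene-level signal turned miR-30b-5p for risperidone (-0.00314). The median of all miRNAs for the mean of the drugs was -0.38 without scaling, 0.23 with the percentile over all probes and 0.35 with normexp. In the order haloperidol, risperidone and clozapine it was 0.09, -0.64 and -0.55 without scaling. With the percentile over all probes it was -0.04, 0.35 and 0.42, and with normexp -0.11, 0.38 and 0.76.

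Within slide row 2 the sign turned for miR-30b-5p (-0.0258) and miR-30a-3p (0.0489) with haloperidol, miR-30a-5p (-0.14), miR-30b-5p (-0.15) and miR-30e-5p (-0.15) with risperidone, and miR-30c-5p (0.0519) with clozapine; within row 1 for miR-30d-5p with haloperidol (0.0289) and miR-30a-3p with clozapine (-0.0592). With each array left out in turn, the range crossed 0 for haloperidol in miR-30b-5p (-0.00548 to 0.16), miR-30c-5p (-0.38 to 0.0198) and miR-30d-5p (-0.0384 to 0.00848); for risperidone in miR-30b-5p (-0.0667 to 0.15); for clozapine in miR-30c-5p (-0.25 to 0.15), miR-30a-3p (-0.0814 to 0.21), miR-30e-3p (-0.0462 to 0.16) and the arm differences of miR-30a (-0.0576 to 0.69) and miR-30e (-0.0294 to 1.15); and for the mean of the drugs in miR-30c-5p (-0.36 to 0.0431). Leaving out risperidone replicate 2 and clozapine replicate 2 together, an alternative chosen after seeing the data, turned only miR-30c-5p with clozapine (0.04). The likeness to the 3p mean moved by 0.1 or more for miR-340-3p (0.76 by Spearman, 0.80 with group means removed), miR-28-5p (0.67 by Spearman), miR-23a-3p (0.69) and miR-15b-5p (0.93, both with group means removed). The causes were not tested.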
